A study of Homo sapiens with 12 samples.

Results

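The TRAF and cIAP signalling adaptors are 10 genes of 20167 that the array names, TRAF1 to TRAF7, BIRC2, BIRC3 and MAP3K14, and they were measured by 12 of its 34127 probes. They were chosen by family, as all probes whose RefSeq accession belongs to a listed gene, and the interest in the family was selected on array values already seen, since TRAF1 and TRAF3 had been picked from the ratios to control of these same arrays. The values of TRAF1, TRAF3 and BIRC3, an NF-kappaB responsive gene of the same circuit, are therefore given as a description with no test, and the tests below cover the 9 probes of the other 7 genes. The cells were U2OS, an established line from a human osteosarcoma, and received 20 nM of control siRNA with Lipofectamine2000, or the same dose of siRNA against DBP5 (an RNA helicase of the nuclear pore, encoded by DDX19B), GLE1 (the pore protein that stimulates it) or IPPK (the kinase that makes inositol hexakisphosphate, the cofactor of that stimulation). RNA of the cytoplasmic fraction, separated with NP40, was hybridised to 12 one-colour arrays, 3 per siRNA, to ask how each export factor affects the mRNA found in the cytoplasm. The methods list more than 1 siRNA for control, GLE1 and IPPK, and which of them went onto the arrays was not given in the sources used here. A level in this fraction can differ through transcription, export or decay, and these arrays cannot tell them apart, nor fewer cells with a transcript from less of it per cell.

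TRAF proteins bind the cytoplasmic tails of tumour necrosis factor (TNF) receptors, and TRAF6 also serves the interleukin-1 and Toll-like receptors. Most are ubiquitin ligases, while TRAF1 lacks the RING domain that ligases of the family use. In resting cells TRAF2, TRAF3 and the cellular inhibitor of apoptosis proteins cIAP1 (BIRC2) and cIAP2 (BIRC3) form a complex that keeps the kinase NIK (MAP3K14) unstable, and NIK starts the non-canonical NF-kappaB pathway when TRAF3 or the cIAPs are lost. TRAF1 and BIRC3 are known as genes that NF-kappaB itself switches on.

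The stretches of DNA before the start sites of the 3 described genes are shown because BIRC3, TRAF3 and TRAF1 had the largest departures from control among the 12 probes. They are the 250 bases upstream of the start, from RefSeq on build GRCh38.p14, in the direction of the gene, and capitals mark matches to the 10-base NF-kappaB (κB) consensus motif on either strand. BIRC3 is at chr11:102317234-102317483 on the plus strand and TRAF3 at chr14:102777199-102777448 on the plus strand. TRAF1 is at chr9:120929172-120929421 on the minus strand, the most upstream of its 3 annotated starts.
BIRC3: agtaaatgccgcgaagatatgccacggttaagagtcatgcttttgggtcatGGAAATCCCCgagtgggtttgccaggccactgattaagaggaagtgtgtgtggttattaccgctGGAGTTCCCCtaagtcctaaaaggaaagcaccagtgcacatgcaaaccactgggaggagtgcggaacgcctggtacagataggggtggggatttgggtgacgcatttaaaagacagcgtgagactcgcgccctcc
TRAF3: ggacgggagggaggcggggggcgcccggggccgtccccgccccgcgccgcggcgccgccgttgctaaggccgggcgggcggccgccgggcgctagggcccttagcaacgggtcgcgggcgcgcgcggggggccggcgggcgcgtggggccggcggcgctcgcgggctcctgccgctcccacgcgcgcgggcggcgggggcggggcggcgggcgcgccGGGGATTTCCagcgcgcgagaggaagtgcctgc
TRAF1: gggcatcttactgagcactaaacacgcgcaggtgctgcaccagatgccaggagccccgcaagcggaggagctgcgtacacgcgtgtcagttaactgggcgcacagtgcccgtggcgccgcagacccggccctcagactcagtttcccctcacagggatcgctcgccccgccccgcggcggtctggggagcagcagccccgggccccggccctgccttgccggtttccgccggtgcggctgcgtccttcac
The BIRC3 window held 2 matches, whose first bases lie 199 and 135 bases before the start, and the TRAF3 window held 1, at 33 bases before it. Among all 35116 windows of this length in the table, 5.21% held at least 1 match and 0.635% at least 2. All 10 genes had a window, 15 in all, and no match was found in the 13 windows of TRAF1, TRAF2, TRAF4 to TRAF7, BIRC2 and MAP3K14. These are matches of letters, and binding was not measured. BIRC2 and BIRC3 lie next to each other on chromosome 11, on the same strand.

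The siRNA targets were low on the arrays that carried their siRNA, with a ratio to control of 0.0643 for DDX19B after DBP5 siRNA, 0.102 for GLE1 after GLE1 siRNA and 0.187 for IPPK after IPPK siRNA. DDX19A, the close relative of DDX19B, was at 0.0537 of control after DBP5 siRNA. The targets were also below control on other arrays, with IPPK at 0.42 after DBP5 siRNA, DDX19B at 0.49 and DDX19A at 0.541 after GLE1 siRNA, and DDX19A at 0.301 after IPPK siRNA. Of the 7 osteoblast-lineage marker genes, all passed the background flag on the 3 control arrays, as did the epithelial markers EPCAM and KRT18, the haematopoietic markers PTPRC, CD3E and CD14 and the endothelial CDH5. The flag therefore did not separate cell types, and of the markers named here epithelial CDH1 (0 control arrays) and endothelial PECAM1 (1 control array) missed it on control arrays. Marker levels also differed between siRNAs. CDH1 was at least 1.64-fold and 8.42-fold higher than control after DBP5 and GLE1 siRNA, taking on each control array the higher of its own signal and the lowest signal well above background. The same calculation gave 2.1-fold after IPPK siRNA, but only 2 IPPK arrays passed the flag, so this is not a lower bound. EPCAM and KRT18 were between 0.528 and 0.784 of control. The 6 osteoblast-lineage markers well above background on all 12 arrays ranged from 0.767 to 1.73 of control after DBP5 siRNA, from 0.755 to 2.58 after GLE1 siRNA and from 0.252 (COL1A1) to 1.87 (CDH2) after IPPK siRNA. PTPRC, CD14 and CDH5 were between 0.844 and 1.18. Probes well above background made up 74.8% to 77.7% of the probes on control and DBP5 arrays, 73.4% to 77.0% on GLE1 arrays and 70.9% to 73.8% on IPPK arrays, and MALAT1, a nuclear RNA, was at 0.692 of control with DBP5 siRNA, 0.798 with GLE1 siRNA and 0.474 with IPPK siRNA, while KCNQ1OT1, also listed as nuclear-retained, was at 1.56, 1.8 and 1.16. The part of these shifts in the values below was not tested. All 12 probes of the family were well above background on all 12 arrays, and all passed the filter that 25878 probes passed.

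Intensities below are normalized, background-subtracted spot intensities in arbitrary units, given in the order of replicates 1, 2 and 3. Each ratio is the ratio of group means on the log2 scale, with the SD over the 3 knock-down arrays. BIRC3, which encodes cIAP2, a ubiquitin ligase that holds NIK in check and protects cells from TNF-induced death, read 555, 566 and 532 on the control arrays. It read 381, 362 and 390 after DBP5 siRNA, 1317, 1102 and 1127 after GLE1 siRNA, and 15145, 15524 and 14924 after IPPK siRNA. The 4 groups did not overlap, in the order DBP5, control, GLE1, IPPK. The ratio to control was 0.685 ± 0.026 after DBP5 siRNA, 2.14 ± 0.214 after GLE1 siRNA and 27.6 ± 0.551 after IPPK siRNA (SD, n = 3). The IPPK ratio was the highest of all 25878 probes. On the log2 scale it was 4.79, and 4.77 to 4.81 within the 3 slides.

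TRAF1, an adaptor that joins TRAF2 and the cIAPs, was measured by a dim probe. It read 71.5, 61.6 and 68.7 on control arrays, 30.2, 24.5 and 27.6 after DBP5 siRNA, 274, 289 and 268 after GLE1 siRNA, and 511, 720 and 690 after IPPK siRNA. The order of the groups was that of BIRC3, again without overlap. The ratios to control were 0.407 ± 0.0418, 4.13 ± 0.159 and 9.43 ± 1.69 after DBP5, GLE1 and IPPK siRNA, and the last ranked 14 from the top of 25878 probes. These ratios depend on how background is handled. In the authors' processed values, which are not background-subtracted, the log2 ratios were -0.50, 1.30 and 2.19 in place of -1.30, 2.04 and 3.24. The lowest background-subtracted intensity of a spot well above background was 12 to 13.6 on the DBP5 arrays, where TRAF1 read 26.6 to 32 before normalization.

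TRAF3, the subunit that hands NIK to the cIAPs and also carries signals to interferon genes, read 621, 607 and 670 on control arrays. It read 585, 591 and 642 after DBP5 siRNA, 408, 418 and 426 after GLE1 siRNA, and 158, 186 and 189 after IPPK siRNA. The DBP5 arrays overlapped the control arrays, and both other groups lay below them and apart from each other. The ratios were 0.958 ± 0.0494, 0.66 ± 0.0149 and 0.28 ± 0.027 after DBP5, GLE1 and IPPK siRNA. Without background subtraction the IPPK log2 ratio was -1.38 in place of -1.84, and the DBP5 one -0.00 in place of -0.06. The plot of ratios under 5 ways of processing sets these genes side by side.

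**Figure D1:**
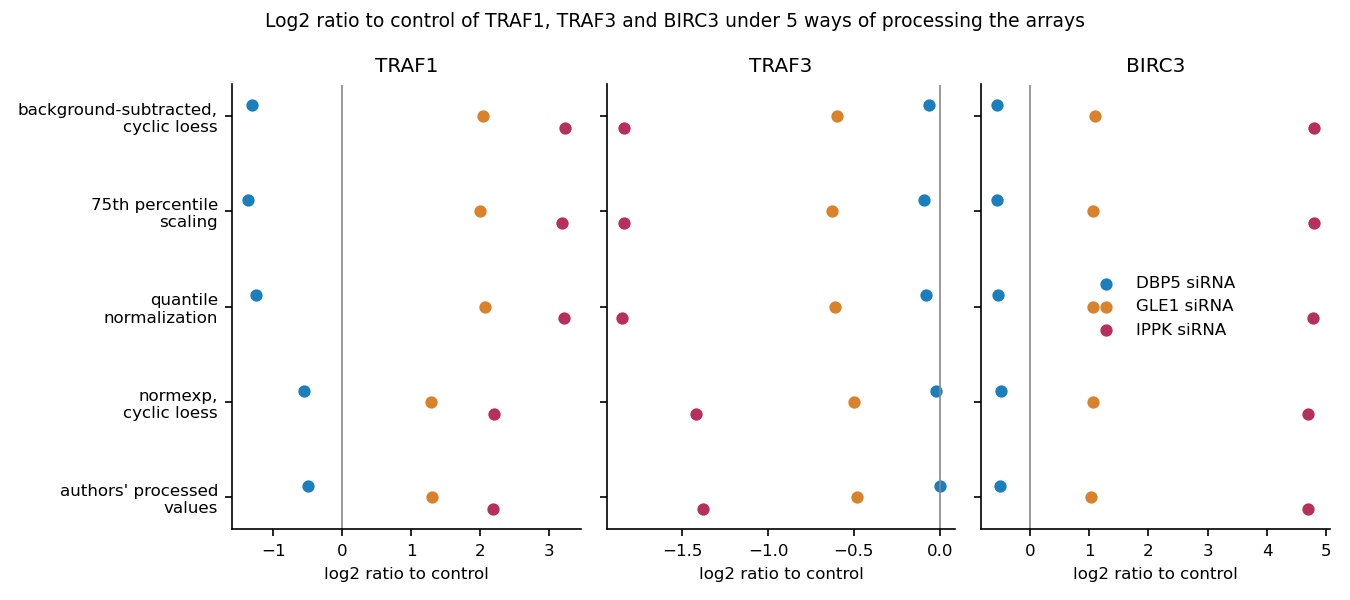
Log2 ratio to control (x axis) of TRAF1, TRAF3 and BIRC3 after each knock-down (points in 3 colours, each the difference of means of 3 arrays) under 5 ways of processing (rows). TRAF1 moves towards 0 in the lower rows, where background is not subtracted outright, from 3.24 to 2.19 after IPPK siRNA, while BIRC3 stays between 4.70 and 4.79.

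Of the 9 tested probes, 4 fell and 3 rose after DBP5 siRNA, with an adjusted p below 0.05 in limma, where 27.2% of all probes fell and 27.1% rose. After GLE1 siRNA 2 fell and 7 rose, where 31.0% of all probes fell and 31.0% rose. After IPPK siRNA 4 fell and 3 rose, where 27.7% of all probes fell and 27.4% rose. The median log2 ratio of the 9 probes was 0.04, 0.47 and -0.14 after DBP5, GLE1 and IPPK siRNA, and that of all probes lay between -0.02 and 0.02. With most probes of the array called in each of these comparisons, a call by itself says little about these genes, and their order and size are given next.

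**Figure D2:**
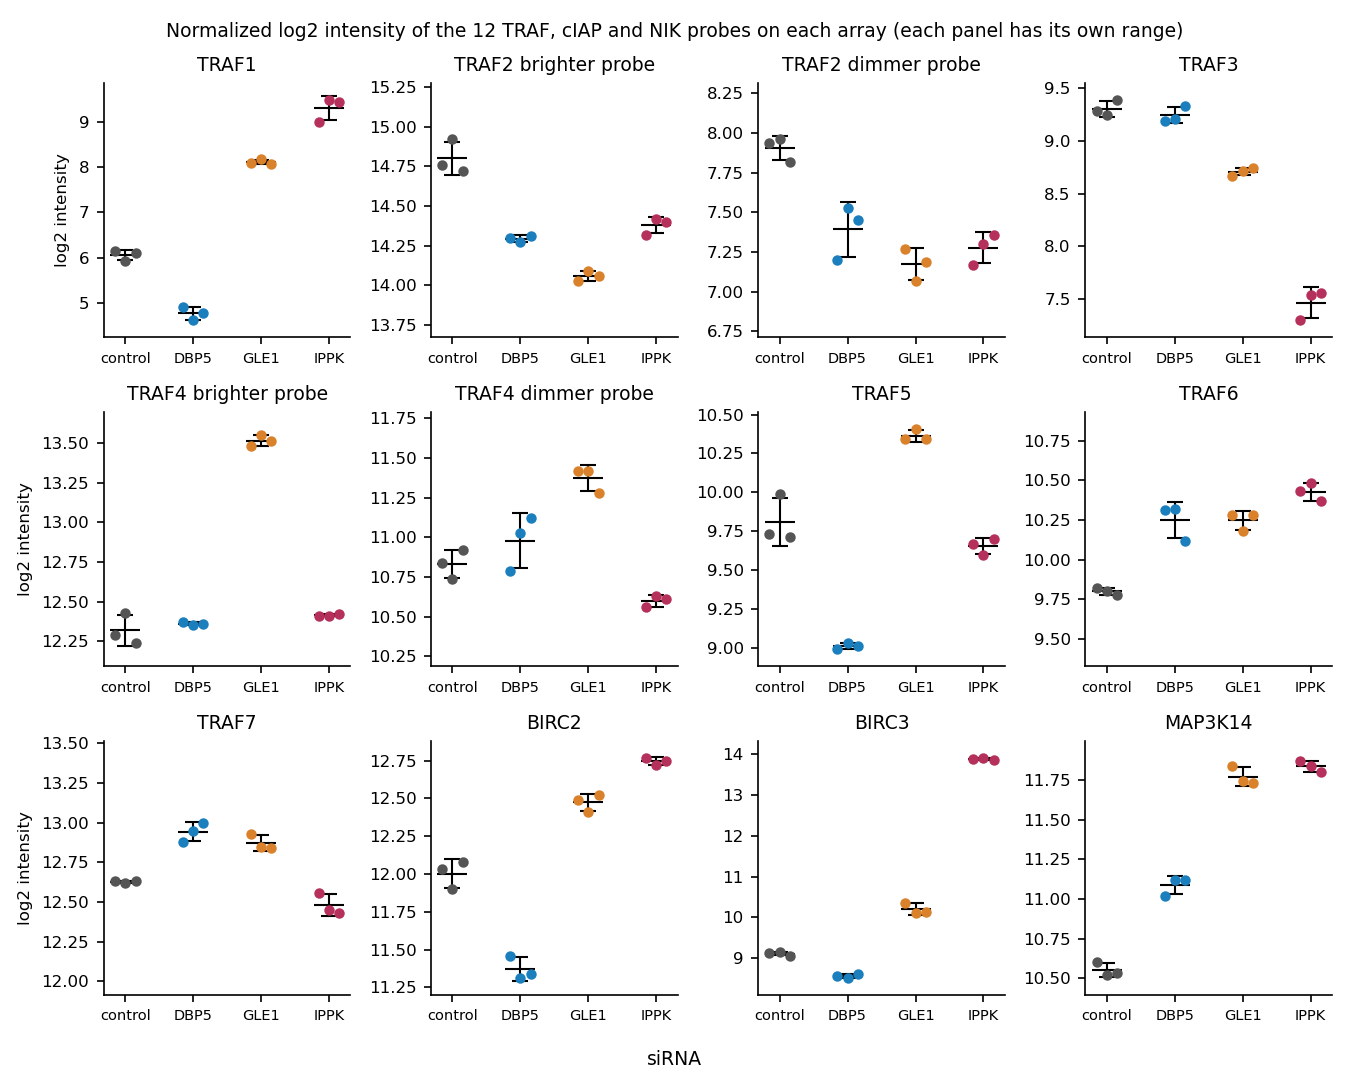
Normalized log2 intensity (y axis, each panel with its own range) of the 12 probes on each array by siRNA (x axis), with the mean and SD of 3 arrays as black bars. BIRC3, TRAF1 and BIRC2 share the order DBP5, control, GLE1, IPPK, TRAF4 and TRAF5 are highest after GLE1 siRNA, and both TRAF2 probes are highest in control.

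BIRC2 encodes cIAP1, the relative of cIAP2 that is present in resting cells. It read 4172, 3809 and 4340 on control arrays, 2814, 2547 and 2585 after DBP5 siRNA, 5755, 5453 and 5854 after GLE1 siRNA, and 6995, 6764 and 6908 after IPPK siRNA. The groups did not overlap and stood in the order seen for BIRC3, over a narrower range. BIRC2 fell to 0.645 ± 0.0352 of control after DBP5 siRNA (limma adjusted p = 1.0e-05) and rose to 1.39 ± 0.0508 after GLE1 siRNA (adjusted p = 6.4e-05) and to 1.68 ± 0.0284 after IPPK siRNA (adjusted p = 2.7e-06). GLE1 against IPPK siRNA gave a ratio of 0.825 (limma adjusted p = 0.00284). The sequences of the probes are not in the files used here, so that cross-hybridisation between these related genes was not checked.

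MAP3K14 encodes NIK, the kinase that the TRAF and cIAP complex degrades. It read 1547, 1468 and 1480 on control arrays, 2070, 2227 and 2226 after DBP5 siRNA, 3670, 3429 and 3398 after GLE1 siRNA, and 3749, 3659 and 3567 after IPPK siRNA. All 9 knock-down arrays lay above all control arrays. It rose to 1.45 ± 0.0601 of control after DBP5 siRNA (limma adjusted p = 9.5e-06), to 2.33 ± 0.0993 after GLE1 siRNA (adjusted p = 1.3e-08) and to 2.44 ± 0.0607 after IPPK siRNA (adjusted p = 1.7e-08). The GLE1 and IPPK arrays overlapped, and their ratio was 0.956 with a 95% confidence interval of 0.882 to 1.04 (limma adjusted p = 0.317).

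TRAF2, the adaptor that brings the cIAPs into receptor complexes, had a pair of probes that gave the same direction. The brighter read 27769, 30903 and 26980 on control arrays, 20231, 19806 and 20362 after DBP5 siRNA, 16781, 17495 and 17114 after GLE1 siRNA, and 20384, 21909 and 21634 after IPPK siRNA. Every knock-down array lay below every control array. Relative to control it fell to 0.706 ± 0.0102 with DBP5 siRNA, 0.601 ± 0.0125 with GLE1 siRNA and 0.747 ± 0.0285 with IPPK siRNA (limma adjusted p = 3.3e-05, 1.2e-06 and 1.2e-04). The dimmer probe fell to 0.7, 0.602 and 0.644 of control (limma adjusted p = 8.1e-04, 4.8e-05 and 1.9e-04), with 227 to 250 on control arrays and 134 to 185 on the 9 others. On the brighter probe GLE1 siRNA gave lower values than DBP5 siRNA (ratio 0.851, limma adjusted p = 0.00595) and than IPPK siRNA (ratio 0.804, adjusted p = 8.1e-04). The dimmer probe gave 0.859 and 0.934 for those ratios (adjusted p = 0.0711 and 0.395), and its groups overlapped. The first of these passed the test without DBP5 replicate 1, under normexp and in the authors' values (adjusted p = 0.00944, 0.0339 and 0.043). In the methods' paired t-test, adjusted over all probes, the DBP5 calls of both probes, the IPPK call of the dimmer and the GLE1 against DBP5 call of the brighter were lost (adjusted p = 0.0633, 0.102, 0.0544 and 0.0531).

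TRAF5, which works with TRAF2 at several TNF-family receptors, read 852, 1017 and 835 on control arrays. It read 510, 522 and 515 after DBP5 siRNA, 1298, 1361 and 1293 after GLE1 siRNA, and 815, 778 and 830 after IPPK siRNA. It fell to 0.574 ± 0.00664 of control after DBP5 siRNA (limma adjusted p = 5.3e-06) and rose to 1.47 ± 0.0424 after GLE1 siRNA (adjusted p = 5.9e-05). The order was DBP5, IPPK, control, GLE1, and the neighbours IPPK and control had a ratio of 0.899 with a 95% confidence interval of 0.804 to 1.01 (limma adjusted p = 0.0981), which passed the threshold with normexp background correction, with the processed values of the authors and without control replicate 3 (adjusted p = 0.0218, 0.0137 and 0.047). GLE1 against DBP5 siRNA gave a ratio of 2.55 (limma adjusted p = 1.2e-07).

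TRAF4, a member known for roles at cell junctions and in development, stood out after GLE1 siRNA. Its brighter probe read 4994, 5505 and 4849 on control arrays, 5287, 5227 and 5248 after DBP5 siRNA, 11418, 11983 and 11633 after GLE1 siRNA, and 5434, 5440 and 5481 after IPPK siRNA. It rose to 2.29 ± 0.0558 of control after GLE1 siRNA (limma adjusted p = 1.7e-08), and GLE1 siRNA was also above DBP5 siRNA (ratio 2.22, adjusted p = 4.2e-08) and above IPPK siRNA (ratio 2.14, adjusted p = 3.9e-08). DBP5 and IPPK arrays overlapped the control arrays, with ratios of 1.03 (95% confidence interval 0.948 to 1.12, limma adjusted p = 0.567) and 1.07 (0.984 to 1.16, adjusted p = 0.162). The latter passed the test without control replicate 2 (adjusted p = 0.0238). The dimmer probe was at 1.11 ± 0.128 after DBP5 siRNA (limma adjusted p = 0.181, 0.0157 without DBP5 replicate 1 and 0.0373 under normexp) and rose to 1.45 ± 0.0769 of control after GLE1 siRNA (limma adjusted p = 2.6e-04, and 0.0575 in the methods' paired t-test), a smaller ratio. After IPPK siRNA the dimmer probe was at 0.849 ± 0.0227 (adjusted p = 0.0378), the opposite direction to the brighter one. That call was lost when any of control replicates 1 and 3 or IPPK replicates 1, 2 and 3 was left out (adjusted p from 0.0642 to 0.126).

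TRAF6, the ubiquitin ligase of the interleukin-1 and Toll-like receptor arm, read 904, 892 and 878 on control arrays. It read 1270, 1274 and 1114 after DBP5 siRNA, 1239, 1163 and 1247 after GLE1 siRNA, and 1382, 1431 and 1325 after IPPK siRNA. Every knock-down array lay above every control array. It rose to 1.37 ± 0.102 of control with DBP5 siRNA, 1.36 ± 0.0519 with GLE1 siRNA and 1.55 ± 0.0598 with IPPK siRNA (limma adjusted p = 1.2e-04, 9.4e-05 and 1.0e-05). The DBP5 call was lost in the methods' paired t-test (adjusted p = 0.0532). GLE1 against DBP5 siRNA gave 0.999 with a 95% confidence interval of 0.907 to 1.1 (limma adjusted p = 0.983). IPPK siRNA was above DBP5 siRNA (ratio 1.13, limma adjusted p = 0.0356) and above GLE1 siRNA (GLE1 against IPPK, ratio 0.882, adjusted p = 0.0277). The first call was lost without DBP5 replicate 3, IPPK replicate 1 or IPPK replicate 2 (adjusted p = 0.12, 0.0746 and 0.121), and the second without GLE1 replicate 2, IPPK replicate 1 or IPPK replicate 2 (adjusted p = 0.103, 0.0592 and 0.0986).

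TRAF7, which has WD40 repeats in place of the TRAF domain of the others, had the smallest maximum departure from control of the 10 genes. It read 6333, 6284 and 6331 on control arrays, 7545, 7940 and 8211 after DBP5 siRNA, 7803, 7371 and 7313 after GLE1 siRNA, and 6030, 5601 and 5530 after IPPK siRNA. It rose to 1.25 ± 0.053 of control after DBP5 siRNA (limma adjusted p = 4.3e-04) and to 1.19 ± 0.0424 after GLE1 siRNA (adjusted p = 0.00207). The first of these calls was lost in the methods' paired t-test (adjusted p = 0.0507). After IPPK siRNA it was at 0.905 ± 0.0428 (limma adjusted p = 0.0411), a call that did not hold in the fit with a replicate block (adjusted p = 0.0524). It was also lost without any 1 control array, or without DBP5 replicate 2, GLE1 replicates 2 or 3, or IPPK replicates 2 or 3 (adjusted p from 0.0506 to 0.138).

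**Figure D3:**
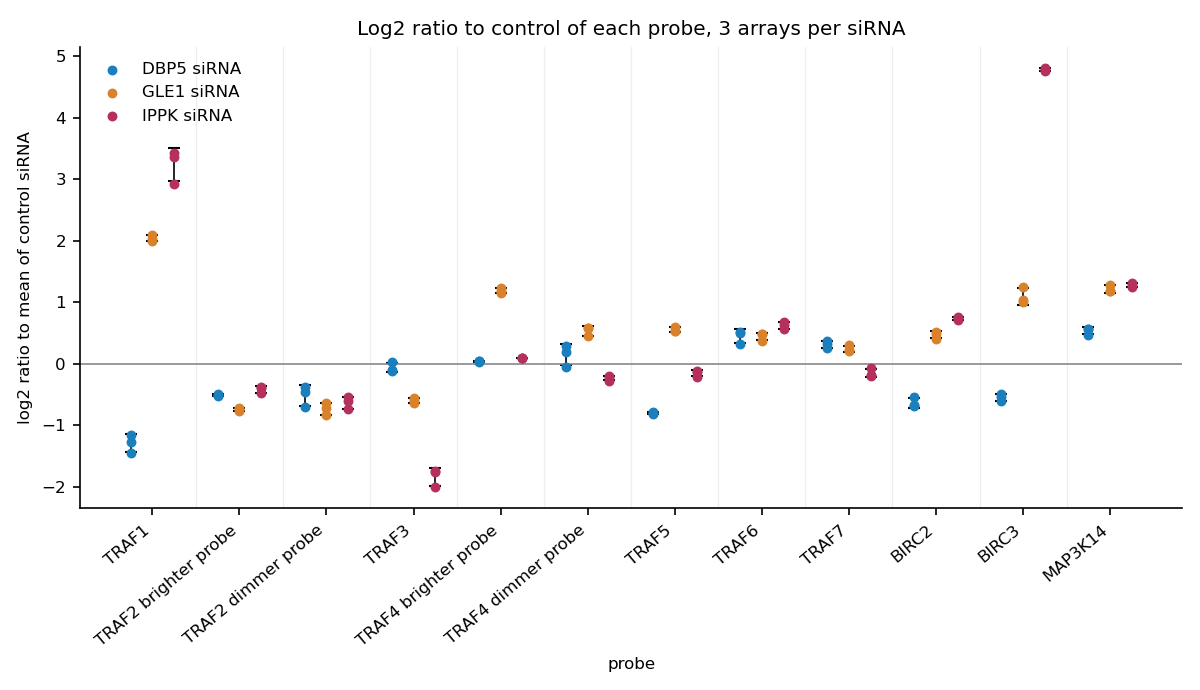
Log2 ratio to the mean of the control arrays (y axis) for each of the 12 probes (x axis) after DBP5, GLE1 and IPPK siRNA, with 1 point per array and bars for the SD around the mean of 3 arrays. TRAF1 and BIRC3 lie furthest above 0 after IPPK siRNA and TRAF3 furthest below it, while the tested probes stay between -0.80 and 1.29 in their means.

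Between knock-downs, 1 of the 9 tested probes was lower and 5 were higher after GLE1 than after DBP5 siRNA, where 27.8% of all probes were lower and 26.6% higher. After IPPK against DBP5 siRNA 2 were lower and 4 higher, where 23.9% were lower and 24.9% higher. After GLE1 against IPPK siRNA 3 were lower and 4 higher, where 30.4% were lower and 29.7% higher. The 5 probes higher after GLE1 than after DBP5 siRNA were both probes of TRAF4 and those of TRAF5, BIRC2 and MAP3K14, of which the dimmer TRAF4 probe was not called in the methods' paired t-test (adjusted p = 0.176). BIRC3 was at 3.12 ± 0.313 of its DBP5 level after GLE1 siRNA and at 40.3 ± 0.804 after IPPK siRNA, the latter the highest ratio of all 25878 probes in that comparison. The complex that controls NIK was measured with its parts in different directions after IPPK siRNA, in which TRAF2 fell and BIRC2 and MAP3K14 rose, while TRAF3 read lower and BIRC3 higher than on all control arrays.

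Of 92 further genes of the same signalling routes, listed by role, 82 had a brightest probe that passed the filter. Of these, 30 fell and 26 rose after DBP5 siRNA, where 28.4% of all genes fell and 30.7% rose. After GLE1 siRNA 26 fell and 35 rose, where 32.8% fell and 33.7% rose. After IPPK siRNA 26 fell and 30 rose, where 28.6% fell and 31.2% rose. Their median log2 ratios were -0.04, 0.15 and 0.01, against medians within 0.02 of 0 over all genes. Among the 77 that were well above background on all 12 arrays, tested with such probes alone, 26, 23 and 25 fell and 26, 35 and 30 rose after DBP5, GLE1 and IPPK siRNA.

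At the head of the pathway, 8 TNF-superfamily ligands passed the filter, but 4 of them (TNF, TNFSF4, TNFSF10 and TNFSF15) were not well above background on all 12 arrays. For dim genes the filter favours those that are brighter in 1 group, so that only the 4 ligands seen on every array are described. LTB, which encodes lymphotoxin beta, a ligand of the receptor that releases NIK, fell to 0.157 ± 0.00264, 0.459 ± 0.0127 and 0.144 ± 0.0161 of control (limma adjusted p = 3.8e-09, 5.0e-07 and 2.2e-09). TNFSF13B, the B-cell factor BAFF, fell to 0.497 ± 0.0497, 0.511 ± 0.0163 and 0.724 ± 0.0292 (limma adjusted p = 2.5e-06, 2.0e-06 and 6.5e-04). TNFSF13B was as dim on control arrays as TRAF1 (mean log2 6.07 in both). LTB was about as dim after DBP5 and IPPK siRNA (5.98 and 5.85). The sizes of their ratios under other handling of background are not given here. TNFSF12, the ligand TWEAK, was at 1.03 ± 0.0661 and 1.03 ± 0.0457 of control after DBP5 and GLE1 siRNA (adjusted p = 0.597 in both) and rose to 1.34 ± 0.0195 after IPPK siRNA (adjusted p = 8.6e-05). TNFSF9, the ligand 4-1BBL, rose to 1.23 ± 0.126 after DBP5 siRNA and 1.42 ± 0.163 after GLE1 siRNA and fell to 0.814 ± 0.109 after IPPK siRNA (adjusted p = 0.0472, 0.00266 and 0.0493). Among 16 receptors, 5, 4 and 3 fell and 3, 5 and 4 rose, and 8, 7 and 9 did not pass the test. Over all genes 28.4%, 32.8% and 28.6% fell and 30.7%, 33.7% and 31.2% rose. TNFRSF21, a death-domain receptor also called DR6, fell to 0.208 ± 0.00487 after DBP5 siRNA (adjusted p = 1.0e-09). It also fell to 0.847 after GLE1 siRNA and 0.759 after IPPK siRNA (adjusted p = 0.00184 and 6.8e-05). TNFRSF9, the receptor 4-1BB that recruits TRAF1 and TRAF2, rose to 5.59 ± 1.22 after GLE1 siRNA and to 1.33 ± 0.115 after IPPK siRNA (adjusted p = 1.7e-07 and 0.0425). It fell to 0.607 ± 0.0837 after DBP5 siRNA (adjusted p = 0.00224), and was dim, with a mean log2 of 6.49 on control arrays and 5.78 after DBP5 siRNA.

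Of 13 receptor-proximal adaptors and kinases, 9 rose in each knock-down, where 30.7%, 33.7% and 31.2% of all genes rose after DBP5, GLE1 and IPPK siRNA. In the same order 3, 1 and 2 fell, where 28.4%, 32.8% and 28.6% of all genes fell. These counts hold TIFA, the only gene among the 13 not well above background on all 12 arrays, which was called lower after DBP5 siRNA and higher after IPPK siRNA. IRAK4, the first kinase of the interleukin-1 and Toll-like receptor arm that leads to TRAF6, rose to 1.81 ± 0.146, 2.31 ± 0.146 and 2.9 ± 0.0792 of control (limma adjusted p = 4.7e-06, 2.0e-07 and 6.0e-08). On control arrays IRAK4 was about as dim as TRAF1 (mean log2 6.16 and 6.07). The sizes of its ratios under other handling of background are not given here. IRAK1, the kinase that follows IRAK4 and binds TRAF6, fell to 0.343 ± 0.00701 after IPPK siRNA (adjusted p = 2.4e-07), and read 1.09 ± 0.144 and 1.26 ± 0.0546 of control after DBP5 and GLE1 siRNA (adjusted p = 0.301 and 0.00849). Of 8 regulators that bind TRAF proteins, 5, 5 and 3 fell and 1, 2 and 1 rose, beside the same shares over all genes. TRAF3IP1, a TRAF3-binding protein of the cilium, fell to 0.757 ± 0.0448 after DBP5 siRNA and 0.252 ± 0.0103 after GLE1 siRNA (adjusted p = 6.4e-04 and 3.8e-09) and rose to 1.39 ± 0.054 after IPPK siRNA (adjusted p = 1.9e-04). N4BP1 rose to 1.61 ± 0.176 after DBP5 siRNA and 1.61 ± 0.187 after GLE1 siRNA (adjusted p = 0.0033 and 0.0027). After IPPK siRNA it was at 1.29 ± 0.214 (adjusted p = 0.07, and 3.7e-04 with a replicate block).

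Of 11 genes for linear ubiquitin chains and deubiquitinases, which build and remove the chains that TRAF and cIAP signalling uses, 5, 4 and 6 fell and 2, 6 and 3 rose. Over all genes 28.4%, 32.8% and 28.6% fell and 30.7%, 33.7% and 31.2% rose. OTULIN, which cuts linear chains, fell to 0.355 ± 0.00943 after GLE1 siRNA (limma adjusted p = 4.3e-08). It also fell to 0.519 after DBP5 siRNA and 0.822 after IPPK siRNA (adjusted p = 2.2e-06 and 0.00883). USP25, dim on control arrays (mean log2 6.54), rose to 2.95 ± 0.0991 after DBP5 siRNA (adjusted p = 1.3e-07). It also rose to 1.36 after GLE1 siRNA and 1.95 after IPPK siRNA (adjusted p = 8.2e-04 and 3.5e-06). Of 12 downstream kinases and their partners, 2, 2 and 3 fell and 8, 7 and 7 rose, beside the same shares over all genes. MAP3K5, also called ASK1, a stress kinase that TRAF2 activates, rose to 3.3 ± 0.13 after IPPK siRNA (adjusted p = 1.1e-08). It also rose to 1.44 after DBP5 siRNA and 1.58 after GLE1 siRNA (adjusted p = 5.9e-05 and 7.2e-06). MAP3K3 fell to 0.626 ± 0.0161 after GLE1 siRNA and 0.911 ± 0.0028 after IPPK siRNA and rose to 1.1 ± 0.0433 after DBP5 siRNA (adjusted p = 6.6e-07, 0.0395 and 0.0377).

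Of 7 other IAP-family genes and their antagonists, 2, 2 and 1 fell and 1, 2 and 3 rose. Over all genes 28.4%, 32.8% and 28.6% fell and 30.7%, 33.7% and 31.2% rose. BIRC6, a giant ubiquitin ligase of the family, rose to 2.32 ± 0.154 after IPPK siRNA (limma adjusted p = 0.00483). It also rose to 2.14 ± 1.03 after GLE1 siRNA and was at 1.46 after DBP5 siRNA (adjusted p = 0.00745 and 0.143). NAIP fell to 0.702 ± 0.0244 after DBP5 siRNA and 0.848 after GLE1 siRNA (adjusted p = 1.7e-04 and 0.0165). After IPPK siRNA NAIP was at 1.07 (adjusted p = 0.273). Among 5 genes of the caspase-8 axis, which the cIAPs restrain at the TNF receptor, 3, 3 and 2 fell and 1, 2 and 1 rose, beside the same shares over all genes. CASP10, an initiator caspase close to caspase-8, rose to 2.05 ± 0.221 after GLE1 siRNA (adjusted p = 3.5e-06). At the end of the NIK route, RELB rose to 1.53 ± 0.106 after GLE1 siRNA and 1.3 ± 0.0226 after IPPK siRNA (limma adjusted p = 4.5e-06 and 2.2e-04). NFKB2, which encodes the precursor that NIK signalling processes, was at 0.938 ± 0.127 of control with DBP5 siRNA, 0.952 ± 0.00498 with GLE1 siRNA and 1.2 ± 0.0297 with IPPK siRNA, and passed the test in none (limma adjusted p = 0.492, 0.586 and 0.0507). With a replicate block it passed after IPPK siRNA (adjusted p = 0.0434, and 0.446 and 0.545 after DBP5 and GLE1 siRNA).

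**Figure D4:**
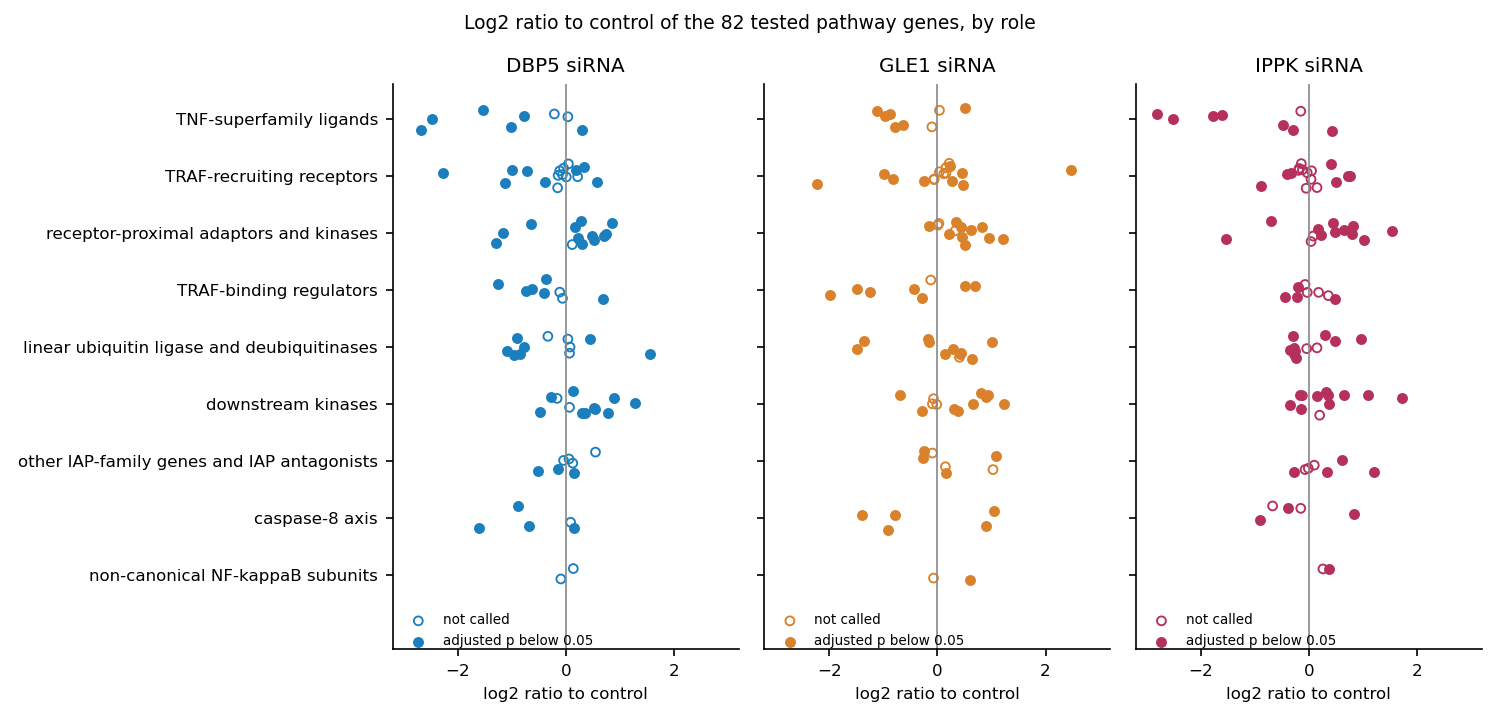
Log2 ratio to control (x axis) of the 82 tested pathway genes by role (rows, with points spread vertically for sight) after DBP5, GLE1 and IPPK siRNA, filled where the limma adjusted p was below 0.05 and open where not. Called genes lie on both sides of 0 in each panel. Of 13 receptor-proximal adaptors and kinases, 9 were called higher in each, where 30.7%, 33.7% and 31.2% of all genes were. The row of ligands includes 4 dim genes whose ratios are not given in the text.

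Across the 12 arrays, which are 4 groups of 3 and not 12 independent points, the log2 values of TRAF3 and BIRC3 had a Pearson's r of -0.987, those of TRAF1 and BIRC2 one of 0.977 and those of TRAF1 and BIRC3 one of 0.895. Among 14987 genes compared, the 5 most like TRAF1 were ARL6IP1, CNNM3, TPD52, CLDN1 and ZDHHC21 (r from 0.988 to 0.992). The 5 most like BIRC3 were ENTPD7, TM4SF19, SOCS2, MARS1 and RNLS (r from 0.983 to 0.992), all with smaller log2 ratios after IPPK siRNA, from 0.74 to 1.46. The 5 most like TRAF3 were ABI3, ZMYND19, NF2, WDR73 and STK11IP (r from 0.988 to 0.992), with log2 ratios from -1.91 to -0.60 after IPPK siRNA.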

How the data were processed

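Cytoplasmic RNA of U2OS cells was labelled with Cy3 and hybridised to 12 arrays of the Agilent 4x44K v2 design, 3 for each of 4 siRNAs. The sample labels gave the groups and the replicate numbers, and the methods state independent array experiments. The authors deposited the output of Feature Extraction 10.7.3.1, with a background-subtracted intensity for each of 43118 gene spots, and a table of processed log2 values, described in the methods as LOESS-normalized. The deposited log2 values had a correlation across probes of at least 0.99982 with the log2 median spot signal without background subtraction, and of 0.961 to 0.967 with the background-subtracted signal.

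Here the background-subtracted intensity was taken to log2 and normalized by cyclic loess. Outlier spots (169 to 358 per array) were left out, 0 spots were saturated, and spots of a probe were averaged. Of 34127 probes, 26449 were named through RefSeq accessions (GRCh38.p14, used for names, neighbours and promoter sequences, since the array design names another build). Probes well above background on 3 arrays of at least 1 siRNA were tested by limma 3.58.1 in R 4.3.3, fitting the 4 group means to the 12 arrays together and adjusting over 25878 probes by Benjamini-Hochberg at 0.05. The fit was first tested on simulated data. Pathway genes were represented by their brightest probe. Arrays give no count of molecules, so that signal over background and their number limit the precision.

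The members and lists were chosen with earlier results of these data known. All 10 members are described, and of the 92 pathway genes those with the largest fall and the largest rise per role are named, with NFKB2 as the partner of RELB, and TIFA and the other ligands named after their values were seen (some listed genes are not reported here), and 5 genes most like each of TRAF1, TRAF3 and BIRC3. Deviations from the group means had an r of 0.309 to 0.52 in the 18 pairs of arrays with the same replicate number and of -0.327 to -0.00777 in the 36 other pairs. The deviations within a group sum to 0, so a positive r in the former brings a negative one in the latter. Each replicate number stands for 1 of the 3 slides, so same-numbered arrays are pairs, and a fit with a replicate block was run as well. Pathway genes whose call the block changed are also named. Further alternatives were quantile normalization, scaling to the 75th percentile, normexp (offset 50) on the median signal, the authors' processed values, a filter on all 12 arrays or none, leaving out each array in turn, a fit to the 6 arrays of a comparison alone, the mean of a gene's probes for the pathway genes, and the methods' t-test, two-sided and paired by replicate number. The paper lists this t-test among its general statistics, while its array gene lists came from rank products. Tables were handled with pandas 2.3.3 and figures drawn with matplotlib 3.10.9 in Python 3.11.15. The plan set normexp on a signal without subtraction, for which the median signal was used. Real-time PCR data were not analysed here.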

Additional observations from a re-analysis of the deposited data

How the results depend on the processing

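Each count of called member probes stayed within 1.5 times the reported count under every alternative except the methods' t-test, and each count of pathway genes did so under the alternatives run for it (the normalizations, normexp, the authors' values, the filter on all 12 arrays, the replicate block and the mean of a gene's probes), and no log2 ratio that passed its test changed sign. Over all alternatives and the 9 tested probes, a call against control was lost 27 times and gained 6 times. Besides the left-out arrays given above, the calls of the dimmer TRAF4 probe and of TRAF7 after IPPK siRNA and of TRAF6 for IPPK against DBP5 were lost with no filter on dim probes (adjusted p = 0.0553, 0.0601 and 0.0512), the first also under normexp and in the authors' values (0.0616 and 0.0785), and the other two with only the 6 arrays of the comparison (0.0591 and 0.112). The methods' t-test, after Benjamini-Hochberg adjustment, called 3 probes in place of 7 for DBP5 against control, 4 in place of 7 for IPPK against control and 3 in place of 6 for IPPK against DBP5. For GLE1 against control, GLE1 against DBP5 and GLE1 against IPPK it called 8, 4 and 6 in place of 9, 6 and 7. The cause was not tested. With each array left out in turn, the counts for DBP5, GLE1 and IPPK against control were 7 to 8, 9 and 5 to 7, and those for GLE1 against DBP5, IPPK against DBP5 and GLE1 against IPPK were 6 to 7, 5 to 6 and 6 to 7. With the replicate number as a block the counts of called member probes were 7, 9 and 6 against control and 6, 6 and 7 between knock-downs, in the same order, and the only call that the block changed among the 9 tested probes was that of TRAF7 after IPPK siRNA. Of the 82 pathway genes, 56, 64 and 60 passed with the block against 56, 61 and 56 without it, for DBP5, GLE1 and IPPK against control. After DBP5 siRNA the call of TNFSF10 was gained and that of XIAP lost. Calls were gained for TNFRSF4, TNFRSF8 and BIRC7 after GLE1 siRNA, and for N4BP1, SIAH2, CYLD and NFKB2 after IPPK siRNA.

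The handling of background moved the dim TRAF1 probe most, with log2 ratios of -0.55, 1.29 and 2.21 after DBP5, GLE1 and IPPK siRNA under normexp against -1.30, 2.04 and 3.24 as reported. BIRC3 after IPPK siRNA was at 4.70 under normexp and at 4.79 as reported.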
